A study of Mus musculus with 17 samples.

Results

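The mRNAs followed here mark macrophages that live in the heart and macrophages that enter it or become activated there. They are 10 genes of the 56748 in the count table, found by their gene names. *Lyve1*, *Timd4*, *Folr2*, *Mrc1* and *Cd163* stand for resident macrophages, and *Ly6c2*, *Plac8*, *Trem2*, *Gpnmb* and *Cd86* for recruited or activated ones. All 10 members had a row in the table and passed the filter on low counts. RNA-seq was run on heart tissue of mice aged 12 to 16 months, with 9 hearts labelled hMut and 8 labelled Ctrl and 1 library per heart. The hMut mice were homozygous for the inducible mutator allele and carried 1 copy of a cre transgene (*Polg* iMut/iMut; +/*Ckmm*-cre), so that a proofreading-deficient mtDNA polymerase was expressed where the muscle creatine kinase promoter drives cre, which includes skeletal muscle as well as the heart. The mice were bred on C57BL/6N, and neither the exact genotype of the Ctrl mice nor the sex of any mouse is given in the sources used here. *Ckmm* is a gene of muscle cells, and macrophages are not among the cells in which its promoter is known to be active.

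The heart holds macrophages that were seeded before birth and renew themselves locally, and others that descend from blood monocytes. Resident cells carry receptors for uptake and clearance, such as those for hyaluronan, phosphatidylserine, folate, mannosylated glycoproteins and hemoglobin bound to haptoglobin. Monocytes arrive with high Ly6C on their surface, and macrophages that take up lipid and debris switch on *Trem2* and *Gpnmb*, while CD86 gives costimulation to T cells. In RNA from a piece of heart tissue, a change in the number of cells of a type and a change in RNA per cell cannot be told apart.

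Total counts per library lay between 32915159 and 46486964. *Polg*, the targeted gene, was at 27.1 to 47.2 CPM (counts scaled to a common library size after TMM normalization) in Ctrl hearts and at 47.0 to 65.1 CPM in hMut hearts, and all but 1 of the hMut hearts exceeded every Ctrl heart. Its log2 fold change was 0.74 (SE 0.10, adjusted p = 0.000448, quasi-likelihood test of edgeR, adjusted by Benjamini-Hochberg here and below), and 0.80 (adjusted p = 0.000190, edgeR) without hMut replicates 6 and 9. Markers of cardiomyocytes were abundant in every heart, and the atrial markers *Myl7* and *Sln* did not exceed 19 and 11 counts in any heart. Which part of the heart was taken is not given in the sources used here. Several libraries stood apart. In hMut replicate 6 the 17 pan-macrophage genes summed to 1681 CPM and in hMut replicate 9 to 844 CPM, against 373 to 505 CPM in the other 7 hMut hearts and 297 to 456 CPM in Ctrl hearts. Replicate 6 also held 82.0 CPM of 7 T cell markers, against 2.61 to 11.6 CPM in Ctrl hearts, and the 5 cardiomyocyte markers were lowest in replicates 9 and 6 (23363 and 25267 CPM, against 28213 to 35546 CPM in Ctrl). Among the Ctrl hearts, replicate 3 held 41.3 CPM of 4 B cell markers, and no other heart exceeded 13.9 CPM. The fold change of each member and each call below are therefore also given without hMut replicates 6 and 9. Because both hearts stood apart by their macrophage genes, leaving them out lowers the fold changes of genes that follow these. Such a drop is given as a description and not as a separate result.

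The sequence next to each start site is shown for the member that passed the test and for a pair of members that did not, since the 10 genes share a cell lineage. Each window is the 250 bases upstream of the canonical transcript of GENCODE M39 in GRCm39, 5′ to 3′ on the strand of the gene, with every match to GAGGAA (the core bound by the myeloid factor PU.1, searched on both strands) in capitals. *Gpnmb* has its window at chr6:49013176-49013425 (plus strand), *Plac8* at chr5:100720112-100720361 (minus strand) and *Cd86* at chr16:36486440-36486689 (minus strand).
Gpnmb: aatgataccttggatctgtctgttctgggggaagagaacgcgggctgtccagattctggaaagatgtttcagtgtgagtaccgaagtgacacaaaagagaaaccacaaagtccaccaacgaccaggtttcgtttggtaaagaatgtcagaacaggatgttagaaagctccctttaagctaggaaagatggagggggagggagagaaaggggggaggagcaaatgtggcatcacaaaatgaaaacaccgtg
Plac8: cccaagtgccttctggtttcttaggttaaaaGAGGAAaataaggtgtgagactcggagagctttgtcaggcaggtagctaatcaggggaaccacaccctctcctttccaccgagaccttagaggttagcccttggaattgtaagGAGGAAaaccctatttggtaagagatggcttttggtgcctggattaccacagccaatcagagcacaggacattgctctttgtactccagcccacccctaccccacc
Cd86: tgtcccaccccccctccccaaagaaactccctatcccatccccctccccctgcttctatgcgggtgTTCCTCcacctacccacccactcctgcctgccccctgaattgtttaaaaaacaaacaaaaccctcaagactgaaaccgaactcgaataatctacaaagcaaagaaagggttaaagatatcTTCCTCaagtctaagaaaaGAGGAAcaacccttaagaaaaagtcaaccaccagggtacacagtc
The *Gpnmb* window held no match, the *Plac8* window 2 and the *Cd86* window 3. Of the 10 members, 5 had at least 1 match (*Mrc1*, *Ly6c2*, *Plac8*, *Trem2* and *Cd86*), and 22.9% of the 21757 protein-coding promoters of the same length had one. *Lyve1*, *Timd4*, *Folr2* and *Cd163*, which did not pass the test, had no match either. The windows shown therefore give no contrast between members that passed and members that did not. The E-box CACGTG, read by the MITF and TFE factors of lysosome genes, was in 6.26% of all promoters and in the window of no member on either strand, which says only that these letters are not in these 250 bases.

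One member has a near-identical neighbour. *Ly6c2* and *Ly6c1*, which is abundant in blood endothelium, lie on the minus strand of chromosome 15 with coding spans from 74980395 to 74983516 and from 74917254 to 74920360. Their 393-base coding sequences were identical at 384 positions (97.7%) with no gap. The first 120 coding bases are shown, with the 6 positions that differ in capitals.
Ly6c2: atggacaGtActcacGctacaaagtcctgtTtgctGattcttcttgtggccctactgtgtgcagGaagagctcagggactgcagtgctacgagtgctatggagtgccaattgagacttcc
Ly6c1: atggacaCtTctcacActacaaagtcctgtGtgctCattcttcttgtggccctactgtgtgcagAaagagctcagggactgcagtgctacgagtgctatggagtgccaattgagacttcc
Of the 100-base windows along the *Ly6c2* transcript, 15.4% were also in the *Ly6c1* transcript, and at 150 bases 5.67%. *Ly6c1* was at 94.6 CPM on average in Ctrl hearts and *Ly6c2* at 0.443 CPM, so *Ly6c2* values are uncertain to the extent that reads were assigned to the wrong copy.

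Of the 10 macrophage markers, 1 differed between hMut and Ctrl hearts at an adjusted p under 0.05, and this was *Gpnmb*, higher in hMut. Over all 16195 genes tested, 749 (4.62%) passed in either direction and 564 (3.48%) were higher in hMut. None of the 5 resident members passed (edgeR; 1 had an unadjusted p under 0.05, and DESeq2 and limma-voom called 0). Unadjusted p-values under 0.05 were common over all genes, and that of *Cd86*, 0.0413, became 0.177 after adjustment (edgeR). Their share over all genes is not given, so counts of them here and below are not read as results. DESeq2 and limma-voom each called more genes in total than edgeR, with totals given in the closing section. The counts of their calls in a list are therefore not read as results either. The median log2 fold change of the 5 resident members was 0.18, and that of the 5 recruited or activated members was 0.73, beside 0.00225 over all genes. Without hMut replicates 6 and 9 the same medians were 0.11 and 0.096, so the recruited or activated median was no longer the higher of the pair, and *Gpnmb* was again the member that passed (2.67% of genes passed in that fit). The plot of CPM by heart shows every member in every library.

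**Figure D1:**
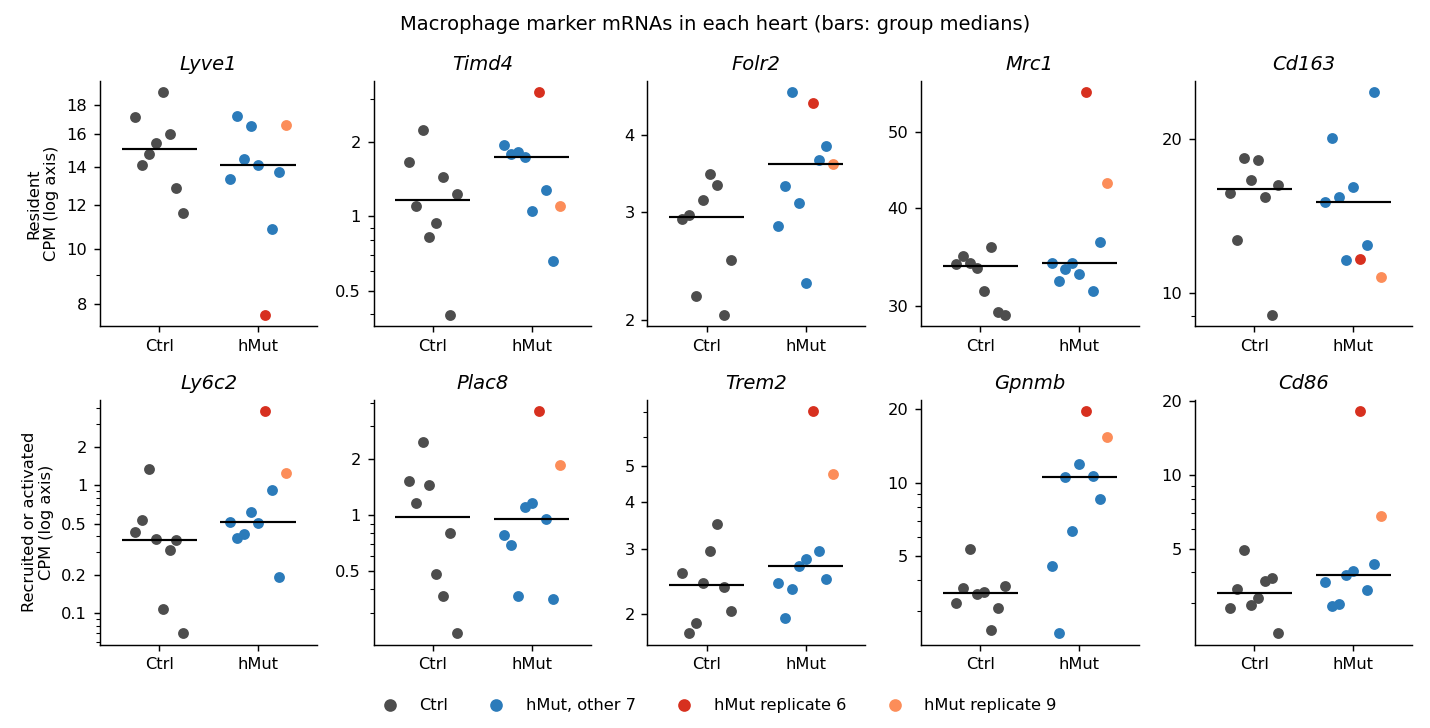
CPM of each member in each heart on a log axis, resident members in the upper row and recruited or activated members in the lower row, with bars at the group medians. *Gpnmb* is above every Ctrl heart in 7 of 9 hMut hearts, *Trem2* and *Cd86* in 2 and *Ly6c2* and *Plac8* in 1, and in all 5 genes hMut replicate 6 is the highest heart and replicate 9 the next highest hMut heart.

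*Gpnmb* encodes a transmembrane glycoprotein of lysosome-rich phagocytes. It was at 2.50 to 5.36 CPM in Ctrl hearts (median 3.55). In hMut hearts it was at 4.57, 2.42, 10.6, 6.32, 11.9, 19.8, 10.6, 8.61 and 15.4 CPM in replicates 1 to 9. Replicates 3 to 9 were above every Ctrl heart, replicate 1 lay within the Ctrl range and replicate 2 lay below it, so the groups overlapped through 2 hearts. This gave a log2 fold change of 1.48 (SE 0.30, 95% interval 0.84 to 2.12, adjusted p = 0.00973, edgeR), a 2.79-fold difference. Without replicates 6 and 9 it was 1.13 (95% interval 0.59 to 1.67, adjusted p = 0.0224, edgeR), with 5 of the 7 remaining hMut hearts above every Ctrl heart. Over 28 alternative fits, the adjusted p lay between 0.000261 and 0.0995, and 27 passed. *Gpnmb* is also a pigment cell gene, and 3 of the 4 melanocyte markers were close to absent. *Pmel* had 3 to 18 counts, *Mlana* 0 to 8 and *Tyr* 0 to 1 per library, whereas *Dct* was at 3.36 to 10.6 CPM in Ctrl and at 4.22 to 8.54 CPM in hMut hearts (log2 fold change -0.12, adjusted p = 0.698, edgeR). The summed melanocyte markers were at 3.59 to 10.8 CPM in Ctrl and 4.67 to 8.99 CPM in hMut hearts.

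*Trem2* encodes a lipid-sensing receptor that signals through the adaptor TYROBP. Ctrl hearts were at 1.78 to 3.49 CPM (median 2.40) and hMut hearts at 1.95 to 7.06 CPM (median 2.70). Replicates 6 (7.06 CPM) and 9 (4.78 CPM) were above every Ctrl heart, and the other 7 hMut hearts, at 1.95 to 2.96 CPM, were inside the Ctrl range. Over all hearts the log2 fold change was 0.43 (SE 0.23, 95% interval -0.061 to 0.91, adjusted p = 0.246, edgeR) and 0.048 without both hearts (95% interval -0.25 to 0.35). *Tyrobp* itself behaved alike, at 21.8 CPM in replicate 6 and 11.7 CPM in replicate 9 against 4.62 to 7.79 CPM in Ctrl (log2 fold change 0.52, adjusted p = 0.193, edgeR). *Trem2* and *Gpnmb*, which are often named together, differed in how many hMut hearts lay above every Ctrl heart, 2 and 7 of 9.

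*Cd86* encodes a ligand of CD28 and CTLA4 on antigen-presenting cells. In Ctrl hearts it was at 2.25 to 4.91 CPM (median 3.28) and in hMut hearts at 2.92 to 18.3 CPM (median 3.91). Replicate 6 was at 18.3 CPM and replicate 9 at 6.81 CPM, and the other 7 hMut hearts (2.92 to 4.33 CPM) were inside the Ctrl range. Its log2 fold change of 0.73 (SE 0.33, 95% interval 0.032 to 1.43, adjusted p = 0.177, edgeR) became 0.25 without replicate 6 and 0.096 without both. DESeq2, which replaced an outlying count of *Cd86*, gave 0.23 (adjusted p = 0.372, with a range of 0.108 to 0.763 over all alternative fits). Dendritic cells also carry *Cd86*. The 6 conventional dendritic cell markers summed to 52.7 CPM in replicate 6 and 36.6 in replicate 9, against 22.1 to 33.6 in Ctrl. Much of this sum was *Zbtb46*, at 20.4 CPM in replicate 6 and 16.1 to 26.7 CPM in Ctrl. In replicate 6 *Xcr1* was at 9.05 CPM (Ctrl 0.218 to 0.920) and *Clec9a* at 11.3 CPM (Ctrl 2.44 to 4.37). *Flt3* was at 4.29 CPM there (Ctrl 0.272 to 0.824) and *Itgae* at 6.85 CPM (Ctrl 0.302 to 0.706), while *Cd209a* was inside the Ctrl range. The part of dendritic cells in the *Cd86* values was not tested.

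*Ly6c2* encodes the Ly6C antigen of classical monocytes and was the lowest member per length, by the gene lengths given with the counts. Ctrl hearts held 0.0697 to 1.33 CPM (median 0.376) and hMut hearts 0.192 to 3.84 CPM (median 0.514). The 3.84 CPM of hMut replicate 6 was the only value above the Ctrl range, and the next highest values were 1.33 CPM in Ctrl replicate 3 and 1.24 CPM in hMut replicate 9. Between the groups the log2 fold change was 1.15 (SE 0.58, 95% interval -0.061 to 2.35, adjusted p = 0.213, edgeR), 0.48 without replicate 6 and 0.23 without replicates 6 and 9. Its paralog *Ly6c1* had a log2 fold change of 0.015 (SE 0.077) and was at 98.5 CPM in replicate 6, inside the Ctrl range of 79.0 to 104 CPM.

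*Plac8* is a small cysteine-rich protein of monocytes that lymphocytes also express. It was at 0.232 to 2.47 CPM in Ctrl hearts (median 0.977) and at 0.357 to 3.62 CPM in hMut hearts (median 0.952). Replicate 6 was again the only hMut heart above the Ctrl range, and 4 of 9 hMut hearts were above the Ctrl median. For *Plac8* the log2 fold change was 0.21 (SE 0.48, 95% interval -0.80 to 1.21, adjusted p = 0.807, edgeR). It was -0.20 without replicate 6 and -0.44 without replicates 6 and 9, and none of these intervals excluded 0. The highest Ctrl value, 2.47 CPM, was that of replicate 3, the heart with the highest B cell markers, and the highest hMut value that of replicate 6, the heart with the highest T cell markers; the part of either cell type was not tested.

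Among the resident markers, *Lyve1*, a hyaluronan receptor of resident macrophages and of lymphatic vessels, was at 11.6 to 19.0 CPM in Ctrl hearts (median 15.1) and at 7.65 to 17.2 CPM in hMut hearts (median 14.1). Replicates 6 (7.65 CPM) and 7 (10.9 CPM) were below every Ctrl heart and none was above. That gave a log2 fold change of -0.13 (SE 0.13, 95% interval -0.41 to 0.16, adjusted p = 0.561, edgeR), and -0.075 (95% interval -0.29 to 0.14) without replicates 6 and 9. The 6 lymphatic endothelial markers summed to 136 to 175 CPM in Ctrl and 110 to 155 CPM in hMut hearts, with 120 CPM in replicate 6, and of them the chemokine gene *Ccl21a* fell (log2 fold change -0.79, SE 0.22, adjusted p = 0.0466, edgeR). This call was lost without replicates 6 and 9 (-0.68, adjusted p = 0.111, edgeR), and *Ccl21a* passed in 4 of the 17 fits that each left out 1 heart. *Prox1*, which is also expressed outside lymphatic vessels, had -0.21 (adjusted p = 0.230, edgeR). Much of the sum was *Prox1*, at 89.1 CPM on average in Ctrl hearts. Of the 6 markers 2 had a positive log2 fold change, *Flt4* (0.17, adjusted p = 0.0878, edgeR) and *Pdpn* (0.35, adjusted p = 0.148, edgeR). The part of lymphatic vessels in the *Lyve1* values was not tested.

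*Timd4*, a phosphatidylserine receptor of self-renewing resident cells, was at 0.398 to 2.25 CPM in Ctrl (median 1.17) and 0.658 to 3.20 CPM in hMut hearts (median 1.74). Only replicate 6 exceeded the Ctrl range. *Folr2*, a folate receptor, was at 2.04 to 3.45 CPM in Ctrl (median 2.94) and 2.30 to 4.69 CPM in hMut hearts (median 3.58), and 5 of 9 hMut hearts (replicates 3, 6, 7, 8 and 9) were above every Ctrl heart. Its log2 fold change was 0.33 (SE 0.14, 95% interval 0.030 to 0.63, adjusted p = 0.159, edgeR), the only resident member with an interval that excluded 0 before adjustment, and 0.27 without replicates 6 and 9. For *Timd4* it was 0.40 (SE 0.30, adjusted p = 0.403, edgeR), and 0.26 (95% interval -0.34 to 0.87) without both.

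*Mrc1*, the mannose receptor, was at 29.2 to 35.7 CPM in Ctrl hearts (median 33.7) and 31.3 to 56.1 CPM in hMut hearts (median 33.9). Replicates 6 (56.1 CPM), 9 (43.0 CPM) and 8 (36.1 CPM) were above every Ctrl heart. Its log2 fold change was 0.18 (SE 0.10, adjusted p = 0.255, edgeR), and 0.033 (95% interval -0.071 to 0.14) without replicates 6 and 9, the narrowest interval of the 10 members in that fit. *Cd163*, the scavenger receptor for hemoglobin-haptoglobin complexes, went the other way in these hearts. It was at 9.06 to 18.3 CPM in Ctrl (median 16.0) and 10.7 to 24.6 CPM in hMut hearts (median 15.0), with replicates 9 (10.7 CPM) and 6 (11.6 CPM) near the bottom and replicates 8 (24.6 CPM) and 2 above every Ctrl heart. Its log2 fold change was 0.00099 (95% interval -0.34 to 0.35, adjusted p = 0.998, edgeR), and 0.11 (95% interval -0.22 to 0.44) without replicates 6 and 9.

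**Figure D2:**
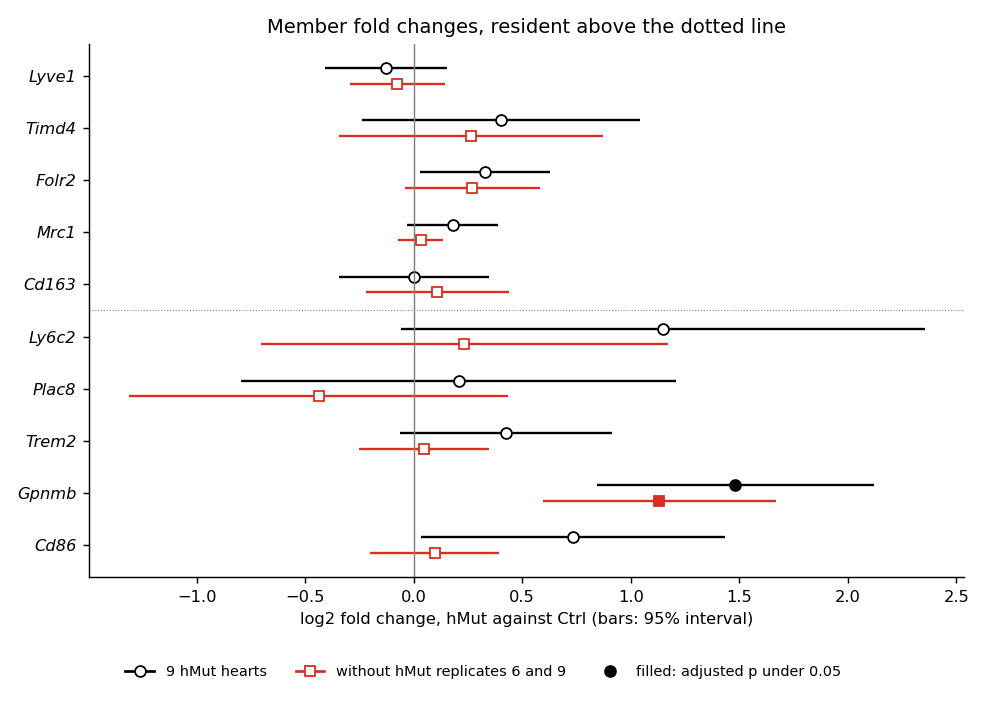
Log2 fold change of each member, hMut against Ctrl, with its 95% interval, from all 9 hMut hearts (black circles) and without hMut replicates 6 and 9 (red squares), with filled symbols for an adjusted p under 0.05. *Gpnmb* stays at 1.13 when both hearts are left out, while *Ly6c2*, *Trem2* and *Cd86* move to between 0.048 and 0.23 and *Plac8* to -0.44.

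Levels between genes were compared per length, as RPKM (CPM divided by gene length in kilobases). The gene length given with the counts can exceed that of a transcript. For *Ly6c2* it was 2740 bases, against 837 in the canonical transcript, so the order below, and the last place of *Ly6c2*, depend on it. In Ctrl hearts the order was *Lyve1* (5.17 ± 0.805, SD, n = 8), *Mrc1* (5.13 ± 0.382), *Cd163* (2.80 ± 0.561), *Folr2* (1.82 ± 0.335) and *Cd86* (0.922 ± 0.217). *Plac8* (0.667 ± 0.471), *Timd4* (0.567 ± 0.260), *Gpnmb* (0.552 ± 0.127) and *Trem2* (0.495 ± 0.116) followed, each neighbour within 1 SD of the next, and *Ly6c2* was lowest (0.162 ± 0.143). *Lyve1* and *Mrc1* differed by less than their spread, as did *Cd86* and *Plac8*. In hMut hearts *Gpnmb* reached 1.54 ± 0.824 RPKM (SD, n = 9), level with *Cd86* at 1.53 ± 1.34, and the order of the first 4 genes changed only in that *Mrc1* (5.81 ± 1.25) stood above *Lyve1* (4.74 ± 1.04).

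A score was formed for each heart as the mean log2 CPM of the 5 members of a set, relative to the Ctrl mean. The resident score lay between -0.58 and 0.20 in Ctrl hearts and between -0.061 and 0.33 in hMut hearts, and the recruited or activated score between -0.79 and 0.84 and between -0.22 and 2.37. Replicate 6 (2.37) and replicate 9 (1.39) were the 2 hMut hearts above every Ctrl heart in the recruited or activated score, and none of the other 7 was. In the resident score 3 hMut hearts (replicates 2, 3 and 6) were above every Ctrl heart. The recruited minus resident score was 0.49 higher in hMut than in Ctrl on average (SD 0.81 in hMut, n = 9, and 0.49 in Ctrl, n = 8), and 4 hMut hearts (replicates 5, 6, 7 and 9) exceeded every Ctrl heart. Without replicates 6 and 9 the difference was 0.15. Neither difference was larger than the SD of either group compared. No test was run on the scores.

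**Figure D3:**
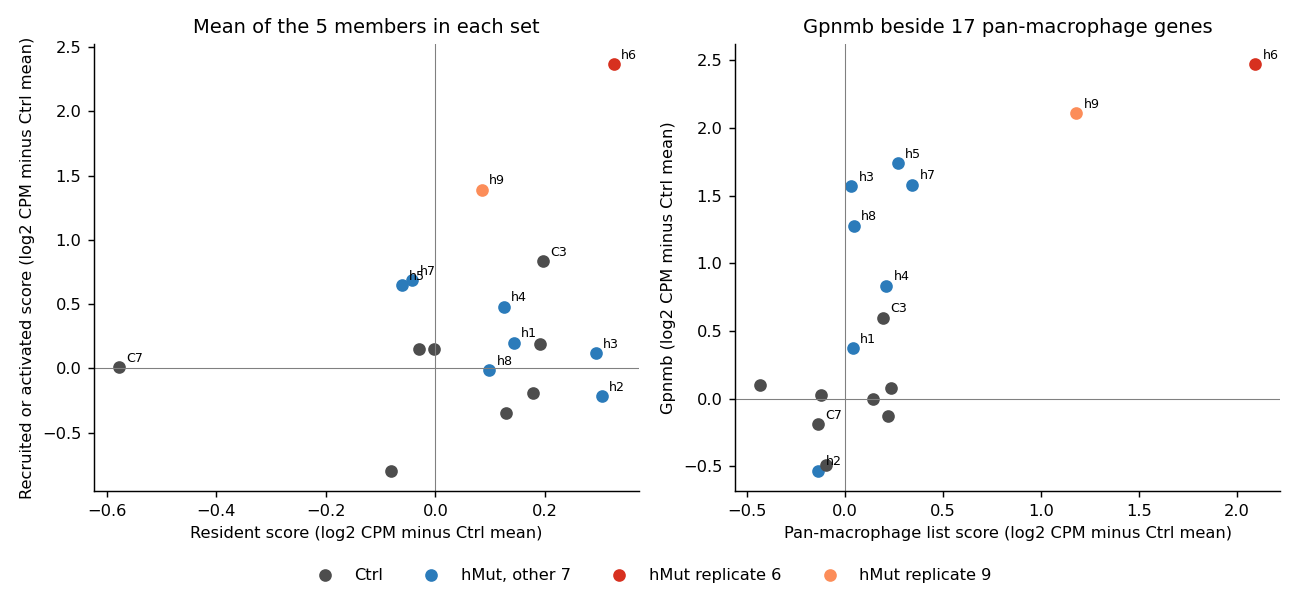
Left, the recruited or activated score against the resident score of each heart, and right, *Gpnmb* against the mean of 17 pan-macrophage genes, all as log2 CPM minus the Ctrl mean (h, hMut replicate; C, Ctrl replicate). Replicates 6 and 9 are high on both axes at right, whereas hMut replicates 3, 5, 7 and 8 have *Gpnmb* 1.28 to 1.74 above the Ctrl mean at pan-macrophage scores of 0.034 to 0.34.

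*Gpnmb* was then set beside genes that mark macrophages of any kind. The pan-macrophage score was between -0.43 and 0.24 in Ctrl hearts, 2.09 in hMut replicate 6 and 1.18 in replicate 9, and it ranged from -0.14 to 0.34 over the other 7. In replicates 3, 5, 7 and 8 *Gpnmb* was 1.57, 1.74, 1.58 and 1.28 above the Ctrl mean on the log2 scale, while the pan-macrophage score was 0.034, 0.27, 0.34 and 0.047. The difference of both was above every Ctrl heart in 6 of 9 hMut hearts (Ctrl -0.39 to 0.54). In replicate 6, where the macrophage genes were highest, this difference was 0.38 and inside the Ctrl range, with *Gpnmb* and the other macrophage genes both high.

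The members did not vary together in the same way in both groups. Across the 9 hMut hearts the 10 pairs of recruited or activated members had Spearman correlations between 0.50 and 0.87 (median 0.74), and without replicates 6 and 9 between -0.071 and 0.71 (median 0.45, n = 7). Across the 8 Ctrl hearts the range was -0.71 to 0.90 (median 0.071), with *Ly6c2* and *Plac8* at the top and *Trem2* and *Gpnmb* at the bottom. These same pairs shared the highest value in hMut hearts, 0.87, and 0.71 without replicates 6 and 9. The resident pairs had a median of -0.067 in hMut and 0.35 in Ctrl hearts. Of the 25 pairs across the sets, *Cd163* and *Ly6c2* gave the lowest value in hMut hearts (-0.90, n = 9; -0.93 without replicates 6 and 9, n = 7) and 0.048 in Ctrl hearts. These values describe few hearts that share depth and composition, and no test was run on them.

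**Figure D4:**
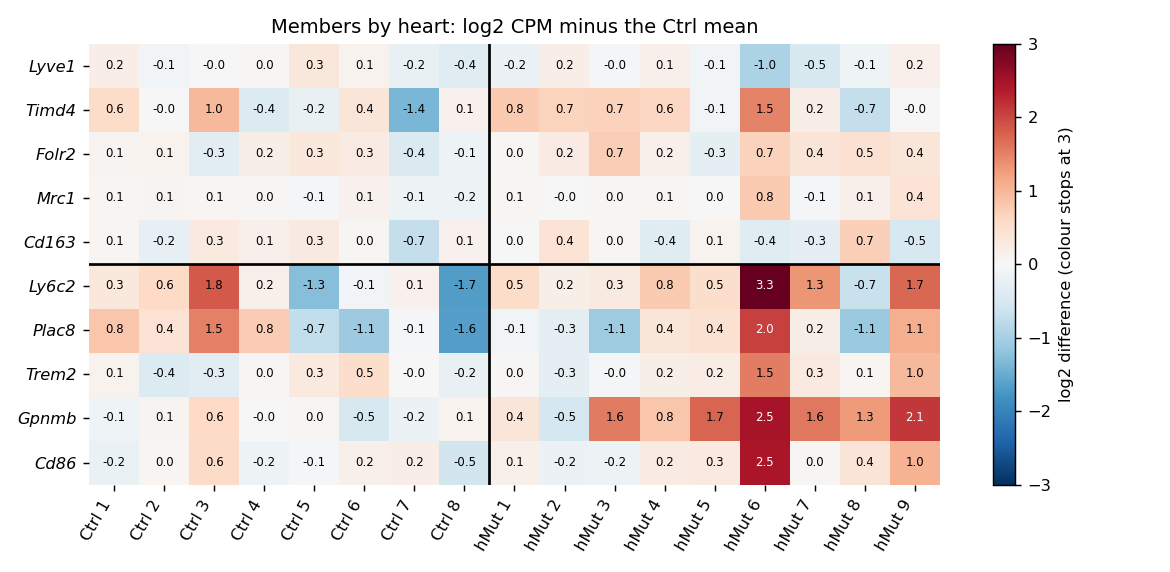
Log2 CPM of each member (rows) in each heart (columns) minus the mean of the 8 Ctrl hearts, with the colour scale ending at 3. The column of hMut replicate 6 is high in all 5 recruited or activated members and in the resident members *Timd4*, *Folr2* and *Mrc1*. It is low in *Lyve1* and *Cd163*. The *Gpnmb* row is high in hMut replicates 3 to 9, and Ctrl replicate 3 is high in *Ly6c2* and *Plac8*.

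For each member, the genes whose log2 CPM followed it most closely over the 17 hearts were found by Spearman correlation. *Gpnmb* was nearest to *Rtn4*, a reticulon of the endoplasmic reticulum (rho 0.98, and 0.97 without replicates 6 and 9, n = 15), and to *Hmox1*, the heme-degrading oxygenase (0.97 and 0.95). Both passed the test, *Rtn4* with a log2 fold change of 0.66 (SE 0.16, adjusted p = 0.0210, edgeR) and *Hmox1* with 0.88 (SE 0.23, adjusted p = 0.0359, edgeR). They were picked for following *Gpnmb* over hearts of both groups, so these calls are not independent of the call of *Gpnmb*. Without replicates 6 and 9 *Rtn4* still passed (0.43, adjusted p = 0.0153, edgeR) and *Hmox1* did not (0.53, adjusted p = 0.0752, edgeR). With 1 heart left out at a time, *Rtn4* passed in all 17 fits and *Hmox1* in 6. Near *Ly6c2* was *Marcks* (0.93), and *Plac8* was nearest to *Arhgap45* (0.96) and to *Coro1a* (0.94), the latter encoding an actin-binding protein of leukocytes. *Trem2* was nearest to *Mrc2* (0.92) and *Slc13a4* (0.92), and *Cd86* to *Atad2* (0.91) and *Rpl12* (0.90). The resident members had looser neighbours. *Mrc1* was nearest to *Stmn1* (0.88) and *Prc1* (0.85), *Folr2* to *Klhl2* (0.86) and *Sall2* (0.82), *Cd163* to *Spag9* (0.85) and *Mbnl2* (0.83), *Lyve1* to *Wdyhv1* (0.80) and *Zfp809* (0.80), and *Timd4* to *Gm17092* (0.79) and *Rin2* (0.78). None of these neighbours other than *Rtn4* and *Hmox1* passed the test, and no other resident member was among the nearest genes of a resident member.

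Related genes were read from 6 further lists. Some of these genes are not specific to macrophages, such as *Lpl* at 6876 CPM on average in Ctrl hearts. Which cells held the mRNAs was not tested. Of 14 further resident macrophage markers, 1 passed, *Vsig4*, the complement receptor CRIg of resident macrophages. It was at 0.697 to 1.53 CPM in Ctrl and 1.46 to 5.84 CPM in hMut hearts, with 8 of 9 hMut hearts above every Ctrl heart, a log2 fold change of 1.48 (SE 0.27, adjusted p = 0.00455, edgeR) and 1.31 (adjusted p = 0.0109, edgeR) without replicates 6 and 9. The list had a median log2 fold change of 0.11 (-0.00191 without both hearts).

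Of 13 monocyte markers, 11 were tested and none passed (edgeR; 4 had an unadjusted p under 0.05, and DESeq2 and limma-voom each called 1), with a median log2 fold change of 0.52 that was 0.094 without replicates 6 and 9. *Vcan*, a matrix proteoglycan of monocytes and fibroblasts, came closest, at 0.58 (SE 0.18, adjusted p = 0.0698, edgeR). Of the 17 pan-macrophage genes none passed (edgeR; 12 had an unadjusted p under 0.05, and DESeq2 and limma-voom each called 1). All 17 had a positive log2 fold change, with a median of 0.63. The median was 0.11 without replicates 6 and 9, which stood apart by the sum of these same genes, so a drop followed from that choice. Of the 17 genes *Cd14*, the lipopolysaccharide co-receptor, came closest to passing (0.56, SE 0.17, adjusted p = 0.0683, edgeR). *Adgre1*, which encodes F4/80, had 0.71 (SE 0.32, adjusted p = 0.176, edgeR) with 77.3 CPM in replicate 6 and 38.2 CPM in replicate 9 against 11.5 to 18.6 CPM in Ctrl, and 0.029 without both. *Csf1r*, the receptor for macrophage growth factor, had 0.42 (SE 0.17, adjusted p = 0.135, edgeR) and 0.14 without both.

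Of 14 genes of lipid-associated and lysosomal macrophages, 13 were tested and 2 rose. *Lgals3*, which encodes galectin-3, had a log2 fold change of 2.62 (SE 0.36, adjusted p = 0.000385, edgeR), from 4.32 to 8.50 CPM in Ctrl to 6.02 to 80.9 CPM in hMut hearts, with 8 of 9 hMut hearts above every Ctrl heart, and 2.25 (adjusted p = 0.000426, edgeR) without replicates 6 and 9. *Ctsd*, the lysosomal aspartic protease cathepsin D, rose by 0.18 (SE 0.049, adjusted p = 0.0441, edgeR). Without replicates 6 and 9 *Ctsd* no longer passed (0.15, adjusted p = 0.0938, edgeR), and it passed in 5 of the 17 fits that each left out 1 heart. In the fit without both hearts *Lpl*, the lipoprotein lipase that heart muscle also makes, passed in the other direction (-0.26, adjusted p = 0.0468, edgeR), against -0.39 and an adjusted p of 0.0624 (edgeR) over all hearts. The median of the list was 0.18, and -0.00896 without replicates 6 and 9, where 5 of 13 log2 fold changes were positive. Of 9 macrophage growth factors and monocyte attractants, 8 were tested and *Cx3cl1*, the membrane-bound chemokine fractalkine, rose (0.67, SE 0.17, adjusted p = 0.0357, edgeR; 0.42, adjusted p = 0.0389, edgeR, without replicates 6 and 9). *Cx3cl1* passed in 8 of the 17 fits that each left out 1 heart, and not without replicate 9 alone (0.63, adjusted p = 0.0684, edgeR). Of 16 ligands and partners of the members, 14 were tested and *Hmox1*, which acts downstream of heme uptake by CD163, was the one that passed, a call lost without replicates 6 and 9 as given above. It was at 6.54 to 10.7 CPM in Ctrl and 5.75 to 23.9 CPM in hMut hearts, with 7 of 9 above every Ctrl heart, beside a log2 fold change of 0.00099 for *Cd163*.

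**Figure D5:**
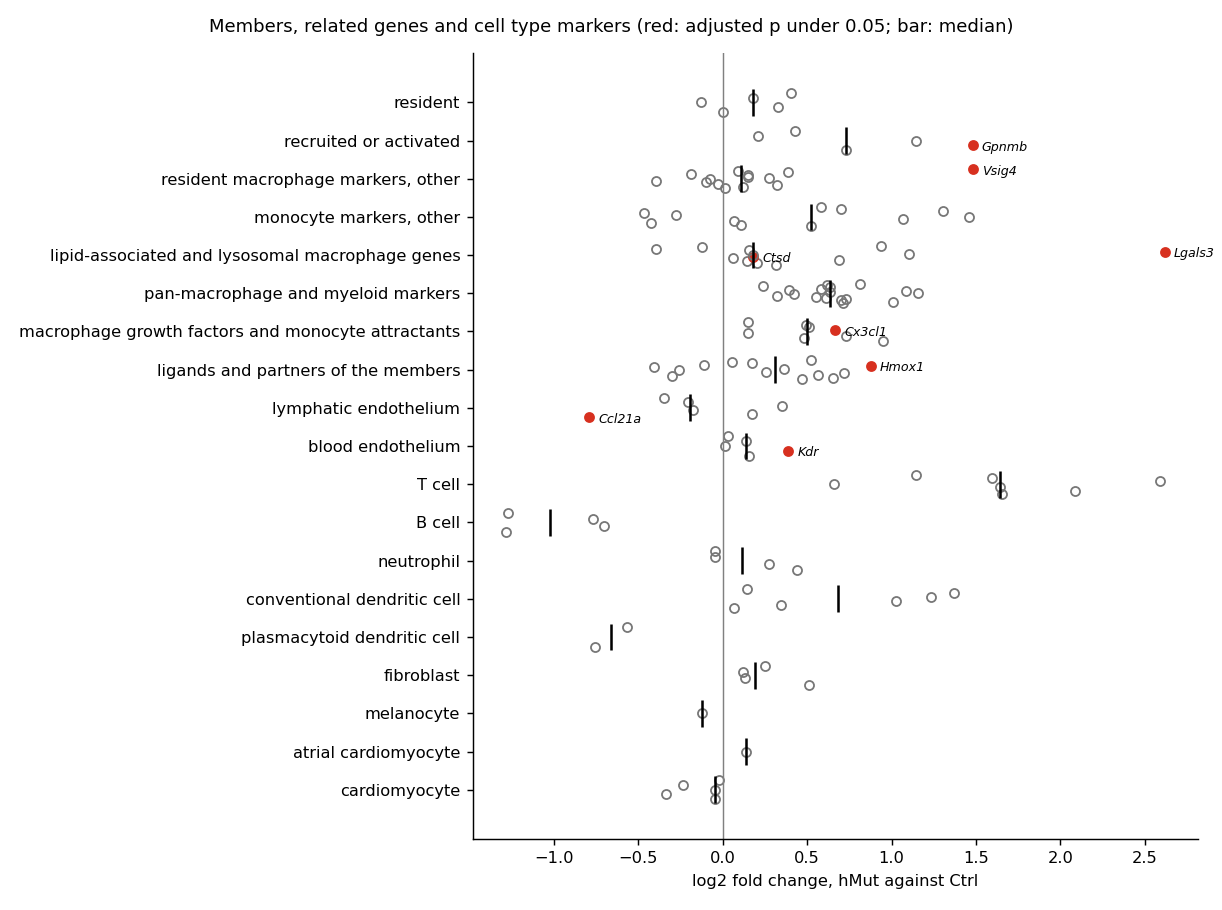
Log2 fold change, hMut against Ctrl, of every tested gene of the member sets, the related lists and the cell type lists (1 circle per gene), with red for an adjusted p under 0.05 and a bar at the median of each list. The 17 pan-macrophage genes are all to the right of 0 without any red circle, and the T cell list has the highest median, 1.64.

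Markers of other cells were read in the same fit. The 7 T cell markers had a median log2 fold change of 1.64 and none passed (edgeR; 4 had an unadjusted p under 0.05, and DESeq2 and limma-voom called 0), and 2 of the 6 tested without replicates 6 and 9 were positive. The gene with the smallest adjusted p, *Cd3e*, was at 8.60 CPM in replicate 6 and at 0.148 to 0.834 CPM in the other hMut hearts. Conventional dendritic cell markers had a median of 0.68, and -0.14 without both hearts, neutrophil markers 0.12, B cell markers -1.02 and plasmacytoid dendritic cell markers -0.66, and none of these passed (edgeR; 0 had an unadjusted p under 0.05, and DESeq2 and limma-voom called 0). Genes that came closest included *Itgae* (1.24, adjusted p = 0.196, edgeR), *Csf3r* (0.44, adjusted p = 0.323, edgeR) and *Siglech* (-0.57, adjusted p = 0.310, edgeR). Of 5 blood endothelial markers, *Kdr*, the VEGF receptor, rose (0.39, SE 0.10, adjusted p = 0.0407, edgeR). Its call was lost without replicates 6 and 9 at about the same size (0.40, adjusted p = 0.0546, edgeR), and *Kdr* passed in 6 of the 17 fits that each left out 1 heart. Of 4 fibroblast markers none passed (edgeR; all 4 had an unadjusted p under 0.05, and DESeq2 and limma-voom each called 1), with *Tcf21* at 0.25 (adjusted p = 0.0801, edgeR). Of 5 cardiomyocyte markers none passed (edgeR; 2 had an unadjusted p under 0.05, and DESeq2 and limma-voom each called 2), with *Myh6* at -0.34 (adjusted p = 0.0601, edgeR). The single tested atrial marker, *Myl4*, had 0.14 (adjusted p = 0.635, edgeR), and the 3 adipocyte markers did not pass the filter on low counts, with at most 21 counts.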

How the data were processed

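Polyadenylated RNA from heart tissue was sequenced on a NovaSeq X Plus. After fastp filtering, the authors mapped reads with HISAT2 2.2.1 to GRCm39, and featureCounts 2.0.6 gave the deposited raw counts, which carry no normalization. The gene length column was used for RPKM. Whether counting used strand, and the read length, are not given in the sources used here, so overlapping genes are uncertain. *Folr2* overlaps the antisense gene *Gm10602* (41 to 94 counts per library).

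Groups came from the labels. Replicate numbers are library numbers. Rows without a gene name were 0 and columns of no sample were 0. Counts were normalized by TMM, filtered with filterByExpr (16195 genes) and tested with edgeR's quasi-likelihood test (version 4.0.16, R 4.3.3), with group as the only term, Benjamini-Hochberg adjustment over all genes and a threshold of 0.05. SEs are absolute log2 fold changes over the square root of F. The test was checked on simulated counts. DESeq2 (1.42.0), which the authors used, limma-voom (limma 3.58.1) and other settings were alternatives. Log2 CPM used a prior count of 2. Python 3.11.15 with pandas 2.3.3, scipy 1.17.1, Biopython 1.88 and matplotlib 3.10.9 served for the rest. p-values set the difference between groups against the spread between these hearts within each group. Over 136 pairs of libraries no copy was found.

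The members and lists were chosen with earlier results of these data known. Named genes are the 10 members, up to 3 genes past the threshold with the smallest adjusted p in each list (or, where none passed, the 1 with the smallest), and *Tyrobp*, *Csf1r*, *Adgre1*, *Ly6c1*, *Prox1*, *Pmel* and *Polg*. *Myl7*, *Sln*, *Mlana*, *Tyr*, *Dct* and the other conventional dendritic cell markers were added for their counts, and *Lpl* for its call, once these were seen. *Flt4* and *Pdpn* were likewise added for their direction. Likeness is Spearman's correlation over 17 hearts among genes with a mean of at least 10 counts, and the 2 nearest genes are given. Some genes that these rules would name are not reported here.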

Additional observations from a re-analysis of the deposited data

Results flagged for a closer look

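The *Cd86* level of hMut replicate 6, 18.3 CPM, stood far from the other 8 hMut hearts. On the log2 scale its gap to the next heart was 0.54 of the whole range of the group, above Dixon's 95% limit for 9 samples. It was the 1 such value among 22 groups of hearts examined (10 members and the recruited minus resident score in each of both genotypes). Chance alone gives about 5% per group, so 1 such value among 22 groups is about what chance gives. The same heart was highest among the hMut hearts in all 5 recruited or activated members.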

How the results depend on the processing

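*Gpnmb* passed the test in 27 of 28 alternative fits, with a log2 fold change between 1.13 and 1.61, and the 9 other members passed in none of their 251. Leaving out 1 heart at a time gave 1 member past the threshold each time, 395 to 1792 genes (lowest without hMut replicate 5, highest without hMut replicate 2), a resident median of 0.084 to 0.21, a recruited or activated median of 0.25 (without hMut replicate 6) to 0.83, and a score difference of 0.29 to 0.61; *Cd163* then ranged from -0.11 to 0.054 and *Plac8* from -0.20 to 0.51. The count of genes was 1524 with DESeq2, 2081 with limma-voom, 463 with no filter on low counts, 433 with *Xist* as covariate and 431 without hMut replicates 6 and 9. That last fit also gave a recruited or activated median of 0.096 and *Plac8* at -0.44, and limma-voom a recruited or activated median of 0.19; the causes of the other shifts were not tested. *Cd163* was at -0.000662 (RLE), -0.0136 (upper quartile), -0.000706 (no mtDNA genes), -0.000391 (CPM filter, where *Ly6c2* was not tested) and -0.0362 (*Xist*).

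The labels name no pairs of animals by replicate number. Same-number correlations were -0.23 to 0.34, with 1 of 8 Ctrl hearts closest to its own number, and such values cannot exclude littermates or joint processing. The fit with the replicate block left out hMut replicate 9, which has no Ctrl heart of its number. In that fit 0 members and 185 genes passed (edgeR), the recruited or activated median was 0.40, and *Gpnmb* was 1.19 (adjusted p = 0.0995, edgeR). *Ly6c2* rested on 3 to 42 counts per Ctrl library, and what part of its spread depth sets was not tested.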
